A study of Mus musculus with 30 samples.

Results

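The genes described here make cholesterol and fatty acids or control their synthesis. They were taken from a list of 34 gene symbols, and each was read from a single probe set. That was the set with the highest mean over 30 arrays among those the platform annotation assigns to the symbol alone. Of the 34, 33 had such a probe set among the 18193 genes measured: 17 sterol enzymes, 6 regulators of the sterol response and sterol carriers, 8 fatty acid enzymes and 2 sterol exporters. Acat2, which joins acetyl-CoA units at the head of the sterol pathway, was not analysed here.

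Expression was measured on Affymetrix Mouse Genome 430 2.0 arrays hybridised with biotin-labelled total RNA, 3 arrays in each of 10 groups. All cells were mouse embryonic fibroblasts from animals lacking both Myod1 and Myf5, so that no endogenous copy of these myogenic factors was present. The study set the muscle factor MyoD (ER-MyoD wt) against a form whose lysines 99, 102 and 104 were mutated so that it can no longer be acetylated (ER-MyoD RRR). Each was delivered by retrovirus as a fusion with the hormone-binding domain of the estrogen receptor, and a retrovirus without insert (empty retrovirus) served as control. Cells were kept in differentiation medium with beta-estradiol for 6, 12 or 24 h in all 3 conditions, and ER-MyoD wt cells were also profiled at 0 h. ER-MyoD RRR and empty retrovirus cells at 0 h were not analysed here, so a change of ER-MyoD wt from 0 h holds medium, hormone and MyoD together. The empty retrovirus carries no receptor fusion, so the control differs from the other cells by the receptor domain as well as by MyoD. The labels do not say that the 3 arrays of a group came from separate cultures, so the p-values measure the spread among these arrays only, and that spread may be technical.

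Cholesterol is built from acetyl-CoA through mevalonate and squalene to lanosterol, which a series of demethylations and reductions turns into cholesterol. When sterols in the endoplasmic reticulum run low, the escort protein SCAP carries the SREBP transcription factors to the Golgi, where they are cut and released to the nucleus to switch on these enzymes, and the INSIG proteins hold SCAP back when sterols are plentiful. SREBP2, from Srebf2, acts mainly on sterol genes, and SREBP1, from Srebf1, mainly on fatty acid genes. Differentiating muscle cells fuse their membranes, whose lipid makeup these pathways supply.

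The CCAAT box was frequent in the promoters of the sterol enzymes, a feature that the choice of members did not use. RefSeq promoters of 300 bases, from 250 before to 50 after a gene's start on GRCm38.p6, were on hand for 26 of the 34 listed genes. The CCAAT box, which the factor NF-Y binds and which often lies beside SREBP sites, was searched as CCAAT on both strands. It was present in 14 of 15 sterol enzyme genes (93.3%), 4 of 5 regulators (80.0%) and 2 of 5 fatty acid enzyme genes (40%), against 41.1% of the 27025 genes with a promoter in the table. The sterol regulatory element core TCACNCCAC, searched likewise, was found in 1 of the 26 members (3.85%), Hmgcs1, against 1.44% of all genes. The E-box CAGCTG, of the kind that myogenic factors bind, was found in 4 of 26 (15.4%; Idi1, Msmo1, Dhcr7 and Insig2), against 18.3% of all genes, and the E-box CACGTG in 6 of 26 (23.1%), against 8.09%. By promoter CACGTG was in 7 of 34 (20.6%), against 7.15%. A match describes letters in this window and says nothing of binding. The following stretches, read 5′ to 3′ on the strand of the gene, belong to members on which the results below turn. Capitals mark the sterol regulatory element core in the line of Hmgcs1 and the CCAAT box, or ATTGG where it lies on the other strand, in the others. They are Hmgcs1 at chr13:119690174-119690262 (+), Mvd at chr8:122443420-122443474 (-), Idi1 at chr13:8885567-8885621 (+), Lss at chr10:76531518-76531572 (+), Cyp51 at chr5:4104697-4104751 (-), Dhcr7 at chr7:143830140-143830194 (+), Srebf2 at chr15:82147109-82147163 (+), Insig1 at chr5:28071171-28071225 (+) and Fasn at chr11:120824577-120824631 (-).
Hmgcs1: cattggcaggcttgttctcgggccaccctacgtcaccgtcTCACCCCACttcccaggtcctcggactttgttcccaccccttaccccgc
Mvd: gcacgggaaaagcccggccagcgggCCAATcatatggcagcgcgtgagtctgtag
Idi1: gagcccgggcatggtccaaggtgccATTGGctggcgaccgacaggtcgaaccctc
Lss: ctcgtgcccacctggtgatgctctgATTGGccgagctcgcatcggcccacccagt
Cyp51: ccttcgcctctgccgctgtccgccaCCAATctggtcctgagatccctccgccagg
Dhcr7: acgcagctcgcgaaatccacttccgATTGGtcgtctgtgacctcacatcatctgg
Srebf2: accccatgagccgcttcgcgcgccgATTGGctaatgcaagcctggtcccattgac
Insig1: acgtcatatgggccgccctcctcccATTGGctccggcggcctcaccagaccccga
Fasn: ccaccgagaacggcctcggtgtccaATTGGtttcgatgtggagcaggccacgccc

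Levels below are the deposited signals of replicates 1, 2 and 3, in arbitrary linear units, and are compared within a gene only. Differences are on the log2(signal + 16) scale after quantile normalization, with their standard error, and so can depart a little from the ratio of the signals printed beside them. Passing means an adjusted p under 0.05 from limma, with the Benjamini-Hochberg method over 18193 genes. The labels name the cells fibroblasts, and all 13 fibroblast markers had a probe set, with a summed signal between 39415 and 72269 as group means. The sum does not stand for each marker. Vim had group means of 6291 to 12122, while Lum had 25.2 to 210, Fap 53.9 to 481 and Pdgfra 67.3 to 1707. The summed signal of 12 markers of differentiating muscle was between 303 and 368 with the empty retrovirus and reached 34866 with ER-MyoD RRR and 52455 with ER-MyoD wt at 24 h. That sum does not stand for each marker either. Tnnt2 had group means of 13.3 to 13294, while Des had 45.9 to 91.7. Adipocyte markers summed to between 687 and 1549, with Lpl at group means of 450.2 to 1300.0 and Retn at 71.9 to 127, and Adipoq, Pparg, Cebpa, Lep and Cidec reached at most 25.4 in any group. There were 3 arrays that stood apart. In ER-MyoD RRR 6 h replicate 2 the 3′ to 5′ signal ratio was 2.44 for Gapdh and 3.61 for Actb, against at most 1.40 and 2.07 elsewhere. The others were empty retrovirus 12 h replicate 1, with the highest median signal (64.1), and ER-MyoD wt 24 h replicate 3, with the next highest (59.2). Of the 33 members, ER-MyoD wt 24 h replicate 3 was lowest of its group for 23, highest for 4 and in between for 6. Empty retrovirus 12 h replicate 1 was lowest for 9, highest for 13 and in between for 11. The omission of these 3 arrays is given where it moves a result. In RNA from whole cultures, fewer cells of a type and less RNA per cell cannot be told apart.

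The sterol enzymes formed the most uniform group. With ER-MyoD wt, all 17 were higher than with the empty retrovirus at 6 h and at 12 h, and 9 at 24 h. None was lower by limma, and 0 of 17 were lower at an unadjusted p under 0.05 at each of these times. Among all genes, 6.51% were higher and 6.21% lower at 6 h, 7.16% and 8.26% at 12 h, and 11.4% and 14.0% at 24 h. The median difference of the 17 was 2.32 at 6 h, 2.57 at 12 h and 0.67 at 24 h, beside medians over all genes of -0.01, -0.02 and 0.03. With ER-MyoD RRR, 17, 16 and 7 of them were higher than with the empty retrovirus at 6, 12 and 24 h, where 7.18%, 5.11% and 8.56% of all genes were, and 6.63%, 4.97% and 10.5% were lower. Their medians were 1.35, 2.10 and 0.48, beside 0.04, -0.01 and 0.03 over all genes. None was lower, also at an unadjusted p under 0.05. Both sets of differences share the same empty retrovirus arrays.

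**Figure D1:**
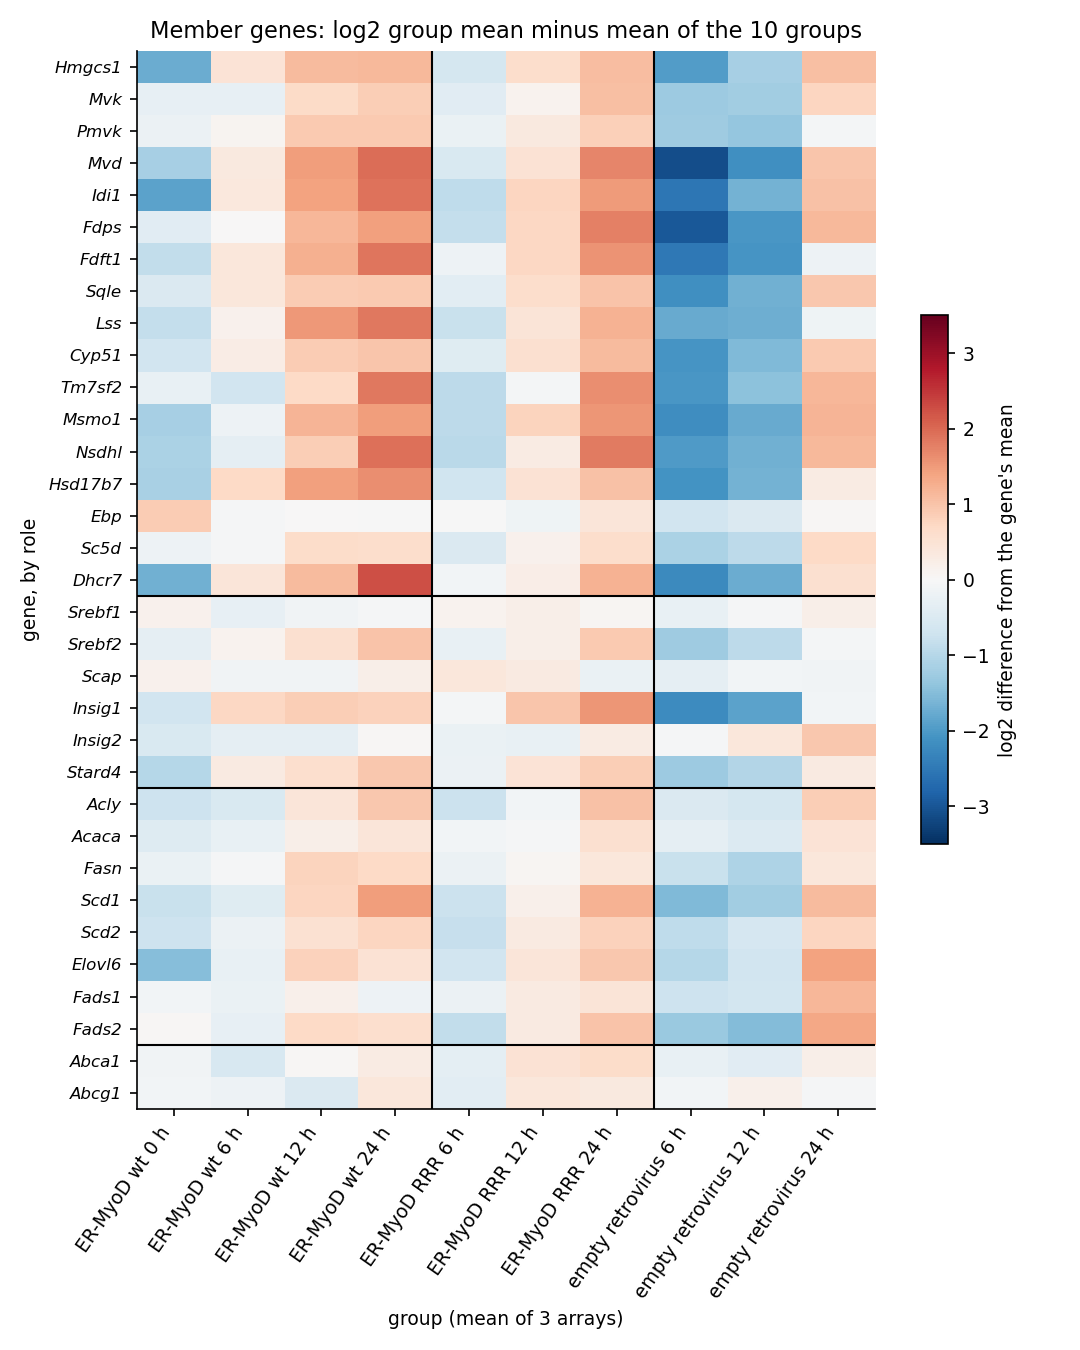
Mean log2(signal + 16) of 33 genes (rows, grouped by role) in 10 groups (columns, 3 arrays each), minus the gene's mean over the 10 groups; blue is below and red above that mean. Each sterol enzyme has its lowest mean with the empty retrovirus, at 6 or 12 h, and all 17 are higher at 24 h than at 6 h in all 3 conditions.

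At the head of the pathway stands Hmgcs1, the synthase that supplies the substrate of mevalonate production. Its signals in ER-MyoD wt cells were 846, 1005 and 899.5 at 0 h, 4516, 4084 and 4330.3 at 6 h, 6144, 5527 and 6848 at 12 h and 6355, 9522 and 4940.1 at 24 h. In ER-MyoD RRR cells they were 1708, 2857 and 1765 at 6 h, 3742, 5055 and 4722 at 12 h and 7419, 5913 and 4978 at 24 h. With the empty retrovirus they were 672, 771 and 709, then 1113, 1482 and 1121, then 4981, 6246 and 5299. The 3 conditions did not overlap at 6 h, with the empty retrovirus lowest and ER-MyoD wt highest, and they overlapped at 24 h. Of the ER-MyoD wt arrays at 24 h only replicate 3, which stood apart, lay below the highest empty retrovirus signal. ER-MyoD wt exceeded the empty retrovirus by 2.45 ± 0.16 (adjusted p = 2.87e-12) at 6 h, a 5.47-fold difference, and by 0.09 ± 0.16 (adjusted p = 0.759) at 24 h.

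The mevalonate kinases and the decarboxylase followed with different ranges. Mvk, which phosphorylates mevalonate, had signals of 298, 322 and 272 in ER-MyoD wt against 134, 158 and 165 in empty retrovirus cells at 6 h. At 24 h these were 686, 742 and 596 against 566, 568 and 749, and they overlapped. Its ER-MyoD wt difference from the empty retrovirus was 0.98 ± 0.18 (adjusted p = 0.000193) at 6 h, 1.89 ± 0.18 (adjusted p = 3.78e-09) at 12 h and 0.09 ± 0.18 (adjusted p = 0.798) at 24 h. The other probe set of Mvk, with a mean signal of at least 50, did not pass at 6 or 12 h with either MyoD form. Pmvk, the next kinase, differed by 1.35 ± 0.19 (adjusted p = 4.86e-06), 2.29 ± 0.19 (adjusted p = 3.16e-10) and 0.98 ± 0.19 (adjusted p = 0.00017) at these times. Mvd, which removes the carboxyl group to give isopentenyl diphosphate, was dim in the control early on. Its signals were 41.5, 11.6 and 61.1 with the empty retrovirus at 6 h, around the median signal of those arrays (48.65 to 49.96), and 693, 665 and 932 at 24 h. They were 171, 134 and 152 in ER-MyoD wt cells at 0 h, 503, 485 and 519 at 6 h, 1312, 889 and 1252 at 12 h and 1519, 1760.5 and 1372 at 24 h. Every ER-MyoD wt array of Mvd exceeded every empty retrovirus array of the same time, by 3.42 ± 0.23 (adjusted p = 7.82e-12) at 6 h, 3.61 ± 0.23 (adjusted p = 2.21e-12) at 12 h and 0.98 ± 0.23 (adjusted p = 0.00174) at 24 h. With control signals this dim the size moves with the constant added before taking logs. At 6 h it was 4.04 with 1 added and 2.51 with 64 added in place of 16, and other values of Mvd that use the control at 6 or 12 h share this limit.

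Idi1 and Fdps make the farnesyl chain from which squalene is joined. Idi1, the isomerase of the isoprene unit, had signals of 304, 216 and 246 at 0 h, 1519, 1347 and 1329.9 at 6 h, 2847, 2738 and 2759 at 12 h and 3731, 4159 and 3620.1 at 24 h in ER-MyoD wt cells. With the empty retrovirus it had 168, 170.0 and 177 at 6 h, 268, 451 and 265 at 12 h and 1654, 2127 and 1946 at 24 h. The arrays of both conditions stayed apart at each time, and the difference fell from 2.91 ± 0.16 (adjusted p = 1.07e-13) at 6 h to 0.89 ± 0.16 (adjusted p = 8.09e-05) at 24 h. Fdps, the farnesyl diphosphate synthase, had 300.0, 252 and 245 with the empty retrovirus and 2329, 2245 and 2006 with ER-MyoD wt at 6 h. At 24 h it had 3902, 3909 and 4578 and 5650.1, 5982 and 6097. Its difference was 2.98 ± 0.25 (adjusted p = 6.41e-10) at 6 h and 0.31 ± 0.25 (adjusted p = 0.433) at 24 h. The other probe set of Fdps had a mean signal of 6.1 and gave -0.08 at 6 h.

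The 3 enzymes from farnesyl diphosphate through squalene to lanosterol stood in different order at 24 h. Fdft1, squalene synthase, had signals of 954, 993 and 1421 with the empty retrovirus, 3429.7, 4074 and 3801 with ER-MyoD RRR and 4872, 5211 and 4882 with ER-MyoD wt at 24 h, and the conditions did not overlap. Sqle, squalene epoxidase, had 2352, 2267 and 2751 with the empty retrovirus, 2771, 2825 and 2258 with ER-MyoD RRR and 2582, 2514 and 2765 with ER-MyoD wt, and they overlapped. Lss, lanosterol synthase, had 510.1, 608 and 730.1 with the empty retrovirus, 1523, 1554 and 1463 with ER-MyoD RRR and 2537, 2794 and 2199 with ER-MyoD wt, without overlap. At 24 h the ER-MyoD wt difference from the empty retrovirus was thus 2.03 ± 0.14 (adjusted p = 4.73e-12) for Fdft1, -0.04 ± 0.13 (adjusted p = 0.892) for Sqle, with an interval of -0.31 to 0.24, and 2.01 ± 0.13 (adjusted p = 7.35e-13) for Lss. At 6 h Sqle had stood at 328, 356 and 264 with the empty retrovirus against 2138, 1698 and 1959 with ER-MyoD wt.

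The enzymes that turn lanosterol into cholesterol split in the same way. Cyp51, the lanosterol demethylase, rose in empty retrovirus cells from 277, 279 and 267 at 12 h to 1464, 1271 and 1555 at 24 h, a level that overlapped with 1818, 1790.3 and 1303 in ER-MyoD wt cells. This overlap came from ER-MyoD wt replicate 3 alone, an array that stood apart. The difference of Cyp51 was 2.32 ± 0.13 (adjusted p = 1.07e-13) at 6 h and 0.06 ± 0.13 (adjusted p = 0.824) at 24 h. Msmo1, which oxidises the methyl groups of the sterol ring, differed by 1.98 ± 0.23 (adjusted p = 2.23e-07) at 6 h and 0.29 ± 0.23 (adjusted p = 0.416) at 24 h. Sc5d, a sterol desaturase, differed by 1.07 ± 0.20 (adjusted p = 0.000289) and -0.08 ± 0.20 (adjusted p = 0.83). Nsdhl, the dehydrogenase of the same demethylation, remained higher at 24 h by 0.79 ± 0.12 (adjusted p = 6.83e-06), with 2877, 3052 and 2659.9 in ER-MyoD wt and 1322, 1599 and 1562 in empty retrovirus cells. Hsd17b7, the ketosteroid reductase that completes it, had 1906, 2316 and 1521 against 692, 787 and 678 and a difference of 1.35 ± 0.14 (adjusted p = 6.77e-09). Tm7sf2, a sterol reductase, was around or below the median signal of the arrays with the empty retrovirus at 6 h (28.0, 55.4 and 14.4) and differed by 0.67 ± 0.23 (adjusted p = 0.0309) at 24 h, a call lost without ER-MyoD wt 24 h replicates 1 or 2 or empty retrovirus 24 h replicates 1 or 2 (adjusted p up to 0.133), or with median centring (adjusted p = 0.0545). Dhcr7, the reductase that yields cholesterol itself, had 514, 623 and 520.1 with the empty retrovirus and 1868, 2743 and 1147 with ER-MyoD wt at 24 h, a difference of 1.69 ± 0.24 (adjusted p = 2.17e-06) with no overlap.

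Ebp, the sterol isomerase, had another course. Its signals in ER-MyoD wt cells were 1087, 1147 and 1175 at 0 h and 519, 622 and 553 at 6 h, and it fell by 0.93 on the log2 scale (-0.93 ± 0.15, adjusted p = 5.25e-05) while 11 of the other 16 sterol enzymes rose. Of all genes, 9.51% rose and 8.20% fell over this step. With the empty retrovirus Ebp had 373, 323 and 366 at 6 h, below each ER-MyoD wt array, and the difference was 0.65 ± 0.15 (adjusted p = 0.00401) there and -0.07 ± 0.15 (adjusted p = 0.829) at 24 h. Its correlation with the mean of the 17 sterol enzymes over the 10 group means was 0.417, where the other 16, which like Ebp enter that mean, had between 0.935 and 0.997. At 12 h the difference of Ebp was 0.53 ± 0.15 (adjusted p = 0.0175), and it missed the threshold without ER-MyoD wt 12 h replicates 1 or 3 or empty retrovirus 12 h replicates 2 or 3 (adjusted p up to 0.108). Its change from 6 to 24 h did so without ER-MyoD wt 24 h replicate 1 or ER-MyoD wt 6 h replicate 2 or empty retrovirus 24 h replicates 2 or 3 or empty retrovirus 6 h replicate 2 (adjusted p up to 0.0815).

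**Figure D2:**
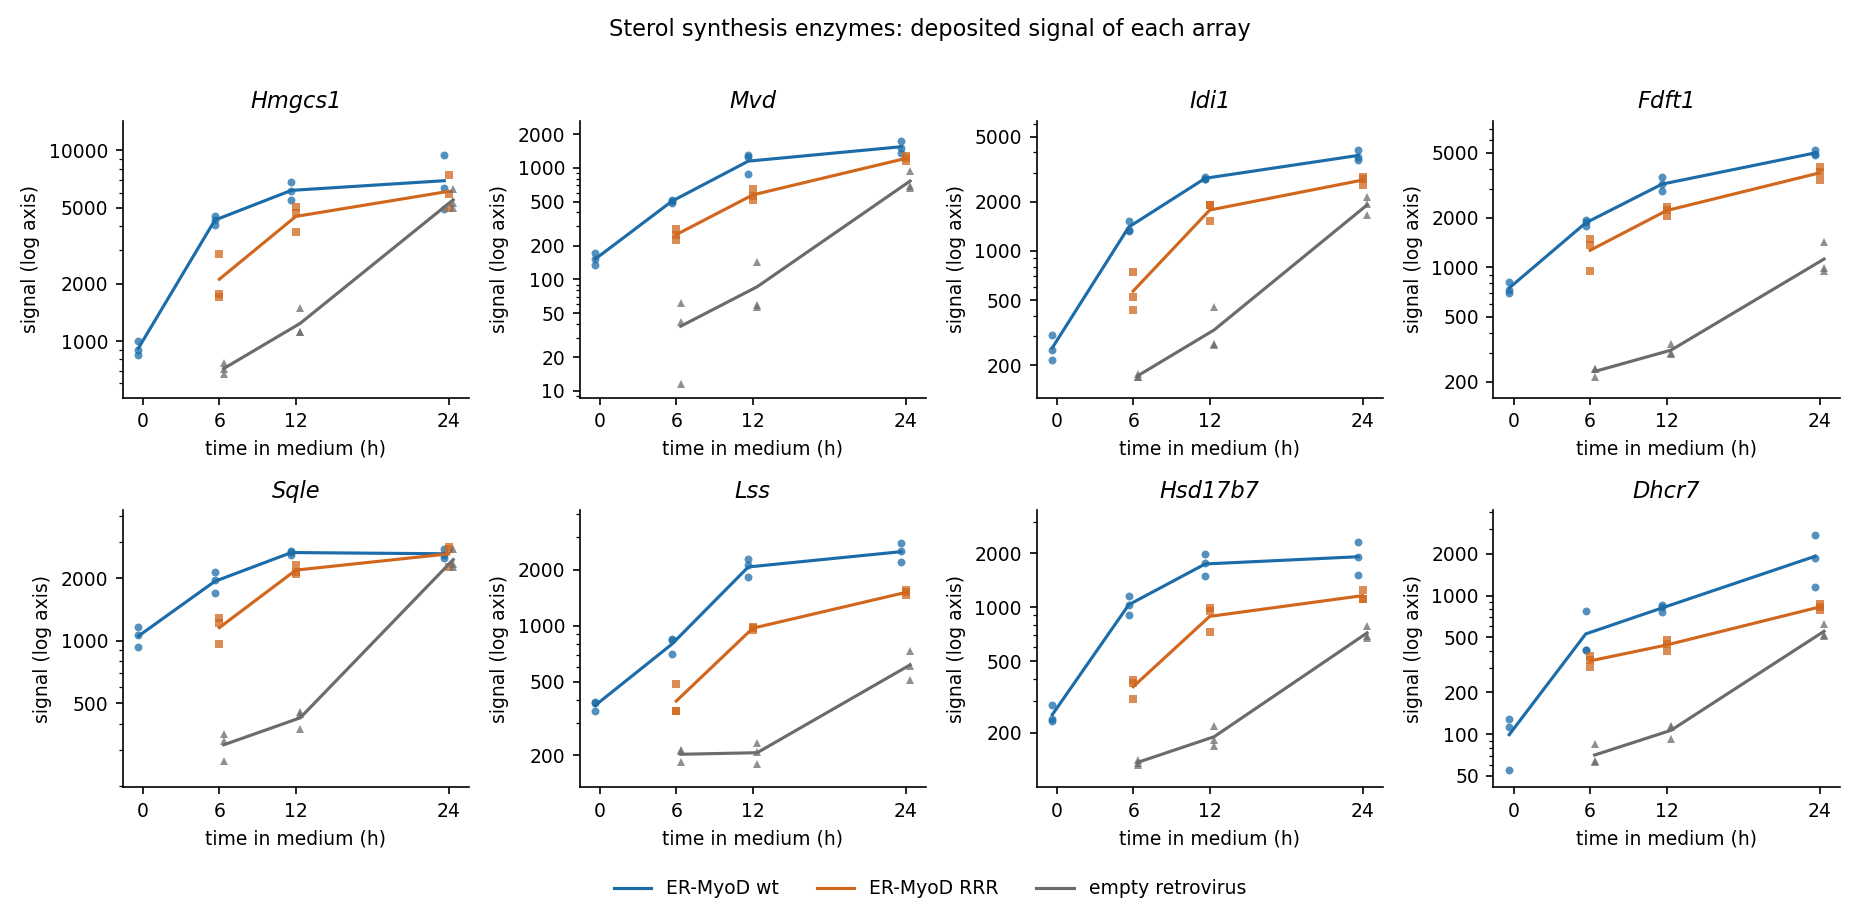
Deposited signal (log axis, arbitrary units) of 8 sterol enzymes against time (h) in ER-MyoD wt, ER-MyoD RRR and empty retrovirus cells; points are single arrays and lines join group means (n = 3). At 24 h Hmgcs1 and Sqle overlap between the conditions, while Fdft1, Lss and Dhcr7 remain lowest with the empty retrovirus.

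The narrowing of these differences came with a late rise in the control cells. Between 12 and 24 h with the empty retrovirus all 17 sterol enzymes rose (median 2.31, beside -0.04 over all genes), as did 4 of 6 regulators and 8 of 8 fatty acid enzymes, where 5.85% of all genes rose and 6.65% fell. The largest rises were those of Fdps (3.16 ± 0.25), Mvd (3.12 ± 0.23) and Msmo1 (2.95 ± 0.23), and the smallest among the sterol enzymes that of Ebp (0.55 ± 0.15, adjusted p = 0.016), which missed the threshold without empty retrovirus 12 h replicates 2 or 3 or empty retrovirus 24 h replicates 2 or 3 (adjusted p up to 0.102), or with median centring (adjusted p = 0.06). Sqle went from 377, 446 and 455 to 2352, 2267 and 2751, with every 24 h array above every 12 h array. Over the same step the summed muscle markers of these cells were 368 and 303, and 10 of 13 fibroblast markers rose, whose part in the result was not tested. Between 6 and 12 h 2 members passed with the empty retrovirus, Hmgcs1 (0.81 ± 0.16, adjusted p = 0.0201) and Idi1 (0.87 ± 0.16, adjusted p = 0.0111), where 0.165% of all genes rose and 0.0330% fell. Hmgcs1 was lost without empty retrovirus 12 h replicates 1 or 2 or empty retrovirus 6 h replicates 1, 2 or 3 (adjusted p up to 0.112) and Idi1 without empty retrovirus 12 h replicate 2 or empty retrovirus 6 h replicates 1 or 2 (adjusted p up to 0.101), and replicate 2 was the highest of the 12 h arrays for both genes. With median centring neither passed (adjusted p = 0.588 for Hmgcs1 and 0.404 for Idi1).

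In ER-MyoD wt cells members rose from the first step on. From 0 to 6 h 16 of 33 members rose and 2 fell, where 9.51% of all genes rose and 8.20% fell, the rises led by Idi1 (2.24 ± 0.16, adjusted p = 3.54e-11), Hmgcs1 (2.22 ± 0.16, adjusted p = 3.27e-11) and Dhcr7 (2.10 ± 0.24, adjusted p = 1.8e-07). From 6 to 12 h 21 rose and 0 fell by limma, with 27 and 0 at an unadjusted p under 0.05 (median 0.72, 0.01 over all genes, 1.45% of all genes higher, 1.20% lower), and 16 to 18 did when 1 array was left out. From 12 to 24 h 8 rose (7.99% of all genes, 9.21% lower): Idi1, Fdft1, Tm7sf2, Nsdhl, Dhcr7, Stard4, Acly and Scd1, the largest being Dhcr7 (1.16 ± 0.24, adjusted p = 0.000624). Without ER-MyoD wt 12 h replicate 3, or without ER-MyoD wt 24 h replicate 1, 5 of 33 rose over that last step. Fdft1 went from 694, 817 and 731 at 0 h to 1939.7, 1881 and 1779 at 6 h, 3532, 2914 and 3209.7 at 12 h and 4872, 5211 and 4882 at 24 h, each step without overlap. In ER-MyoD RRR cells 21 members rose from 6 to 12 h (3.02% of all genes, 2.46% lower) and 23 from 12 to 24 h (7.13%, 8.27% lower). None fell by limma at either step, while at an unadjusted p under 0.05 0 and 1 did. These counts depended on scaling. With arrays centred on their medians in place of quantile normalization, 12 and 4 members rose over the last 2 steps of ER-MyoD wt. For ER-MyoD RRR from 12 to 24 h 5 rose and 1 fell, and the median over all genes shifted by -0.13.

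Whether a difference changed from 6 to 24 h was tested directly. The ER-MyoD wt minus empty retrovirus difference became smaller for 21 of 33 members and larger for 0 by limma, with 24 and 0 at an unadjusted p under 0.05 (background 8.24% lower, 6.45% higher), with a median change of -0.89 beside 0.03 over all genes. The largest changes were those of Fdps (-2.67 ± 0.36, adjusted p = 2.37e-06), Sqle (-2.58 ± 0.19, adjusted p = 7.67e-11), Mvd (-2.44 ± 0.33, adjusted p = 3.07e-06) and Hmgcs1 (-2.36 ± 0.22, adjusted p = 8.36e-09). For Lss the change was 0.11 ± 0.18 (adjusted p = 0.794), with an interval of -0.26 to 0.48. The ER-MyoD RRR minus empty retrovirus difference became smaller for 14 of 33 (5.93% of all genes lower, 4.55% higher), led by Mvd (-1.83 ± 0.33, adjusted p = 0.000304) and Sqle (-1.75 ± 0.19, adjusted p = 2.11e-07), and uses the same controls.

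With the acetylation mutant several sterol enzymes were lower than with ER-MyoD wt, 9 of 17 at 6 h, 5 at 12 h and 3 at 24 h. At 6 h these 9 of 17 sterol enzymes were lower and none higher, 12 of 33 members in all, where 2.03% of all genes were lower and 1.63% higher. At an unadjusted p under 0.05, 13 sterol enzymes were lower and 0 higher in that limma fit. The median of the 17 was -0.68 at 6 h and -0.56 at 12 h, beside 0.05 and 0.01 over all genes. The group mean was lowest with the empty retrovirus and highest with ER-MyoD wt for 16 of the 17 at 6 h, 17 at 12 h and 10 at 24 h. Of all genes, 16.7%, 20.7% and 24.4% had their means in that order at these times. In 14, 15 and 6 of the 17, respectively, the 9 arrays of a time fell in that order with no overlap, as they did for 1.53%, 2.17% and 3.52% of all genes. With median centring 8 of 33 members were lower at 6 h, 7 of them sterol enzymes, and the calls of Mvd, Fdft1, Stard4 and Scd2 were lost (adjusted p = 0.0531, 0.111, 0.112 and 0.137). Of all genes 199 were lower with that scaling, in place of 370. Over the same comparison 4 of 12 muscle markers were lower at 6 h, 6 at 12 h and 3 at 24 h. Of all genes, 2.03%, 0.879% and 2.04% were lower at these times. The part of the muscle markers in the sterol result was not tested.

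Hsd17b7 had the largest difference between both MyoD forms. Its signals at 6 h were 132, 141 and 135 with the empty retrovirus, 377, 394 and 309.7 with ER-MyoD RRR and 911, 1155 and 1034 with ER-MyoD wt. The difference of ER-MyoD RRR from ER-MyoD wt was -1.39 ± 0.14 (adjusted p = 4.2e-07). At 12 h they were 181, 218 and 169 with the empty retrovirus, 727, 955 and 986 with ER-MyoD RRR and 1771, 1487 and 1976 with ER-MyoD wt, and at 24 h ER-MyoD RRR had 1118, 1117 and 1250.2. The 3 conditions stayed apart at each time. That difference was -0.94 ± 0.14 (adjusted p = 0.000101) at 12 h and -0.61 ± 0.14 (adjusted p = 0.0056) at 24 h. The probe set used for Hsd17b7 is of the kind whose probes can match other transcripts (suffix x). Among its other probe sets the brightest gave differences of -0.78 at 6 h, -0.64 at 12 h and -0.15 at 24 h, none of which passed.

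With the probe set used, Lss was lower with ER-MyoD RRR at all 3 times. Its signals were 348, 485 and 346 against 846, 841 and 701 at 6 h, and 950.0, 977 and 985 against 2279, 1828 and 2121 at 12 h, with no overlap. The differences were -0.94 ± 0.13 (adjusted p = 4.75e-05), -1.07 ± 0.13 (adjusted p = 5.84e-06) and -0.64 ± 0.13 (adjusted p = 0.00214) at 6, 12 and 24 h. Lss has 2 other probe sets with a mean signal of at least 50, tested among all probe sets. Of these, 1 passed in the same direction at 6 h, and 0 did at 12 h and at 24 h. Idi1 stood at 518, 747 and 438 at 6 h, 1517, 1906 and 1908 at 12 h and 2767, 2842 and 2529 at 24 h with ER-MyoD RRR, below each ER-MyoD wt array of the same time. Its differences were -1.25 ± 0.16 (adjusted p = 2.46e-05), -0.66 ± 0.16 (adjusted p = 0.0287) and -0.41 ± 0.16 (adjusted p = 0.163). The last did not pass, and that at 12 h was lost without ER-MyoD RRR 12 h replicates 1 or 2 or ER-MyoD wt 12 h replicates 1 or 2 (adjusted p up to 0.162). Hmgcs1 differed by -1.10 ± 0.16 (adjusted p = 9.54e-05) at 6 h and by -0.47 ± 0.16 and -0.06 ± 0.16 at 12 and 24 h, which did not pass. Mvd, at 248, 226 and 283 against 503, 485 and 519 at 6 h, differed by -0.88 ± 0.23 (adjusted p = 0.0317), and at 12 h by -0.95 ± 0.23 (adjusted p = 0.0304). The call at 6 h was lost without each of the 6 arrays (adjusted p up to 0.0966) and that at 12 h without ER-MyoD RRR 12 h replicates 1, 2 or 3 or ER-MyoD wt 12 h replicates 1 or 3 (adjusted p up to 0.174). Sqle (-0.76 ± 0.13, adjusted p = 0.00114), Cyp51 (-0.68 ± 0.13, adjusted p = 0.00239), Nsdhl (-0.62 ± 0.12, adjusted p = 0.00315) and Fdft1 (-0.57 ± 0.14, adjusted p = 0.0197) completed the 9 at 6 h. Fdft1 missed the threshold without ER-MyoD RRR 6 h replicate 2 or ER-MyoD wt 6 h replicates 1 or 2 (adjusted p up to 0.123). Among other probe sets with a mean signal of at least 50, 3 of 3 passed in the same direction for Hmgcs1 at 6 h. For Mvd and Idi1 1 of 1 did, for Cyp51 0 of 2 and for Fdft1 0 of 1. At 12 h 0 of 1 did for Idi1.

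Dhcr7 passed at 24 h. At 24 h its signals were 872, 786 and 823 with ER-MyoD RRR and 1868, 2743 and 1147 with ER-MyoD wt, a difference of -1.04 ± 0.24 (adjusted p = 0.00712) with no overlap, against -0.51 ± 0.24 (adjusted p = 0.27) at 6 h, and the change between these times was -0.53 ± 0.34 (adjusted p = 0.522). The 24 h call of Dhcr7 was lost, at -0.80, without ER-MyoD wt 24 h replicate 2 (adjusted p = 0.068), the highest of its group. Fdps had 1666, 532 and 2023 with ER-MyoD RRR at 6 h, where replicate 2 was far below the others, and its difference was -0.85 ± 0.25 (adjusted p = 0.0572). That replicate, the array with the high 3′ to 5′ ratio, was also lowest of its group for Msmo1 (1526, 658 and 1489.5), Mvk (334, 172 and 317) and Fads2 (261, 84.8 and 315). It was the highest of its group for 12 of the 33 members, among them Hmgcs1, Idi1, Lss, Insig1 and Stard4, the lowest for 18 and in between for 3. Without all 3 arrays that stood apart, 12 members were lower at 6 h, as with them.

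At 12 h 7 members were lower with ER-MyoD RRR (0.879% of all genes lower, 0.874% higher): the sterol enzymes Mvd, Idi1, Lss, Hsd17b7 and Nsdhl, and the fatty acid enzymes Fasn and Scd1. The difference of Nsdhl was -0.58 ± 0.12 (adjusted p = 0.00739), a call lost without ER-MyoD RRR 12 h replicate 1 or ER-MyoD wt 12 h replicate 1 (adjusted p up to 0.0922). None was higher by limma, where 2 of 33 were higher and 19 lower at an unadjusted p under 0.05. This count moved with single arrays, being 4 without ER-MyoD RRR 12 h replicate 1, 3 without ER-MyoD wt 12 h replicate 1 and 13 without the 3 arrays that stood apart. With median centring it was 2, Lss and Hsd17b7, and the calls of Mvd, Idi1, Nsdhl, Fasn and Scd1 were lost (adjusted p = 0.1, 0.244, 0.104, 0.0636 and 0.218). Of all genes 63 were lower with that scaling, in place of 160. At 24 h 3 were lower, Lss, Hsd17b7 and Dhcr7, and 2 higher, Insig1 and Fads1 (2.04% and 3.34% of all genes). The count at 24 h was 3 of 33 without ER-MyoD RRR 24 h replicate 2. The median of the 33 members at 24 h was 0.01 and with median-centred arrays -0.15, so that their common direction there depends on the scaling.

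**Figure D3:**
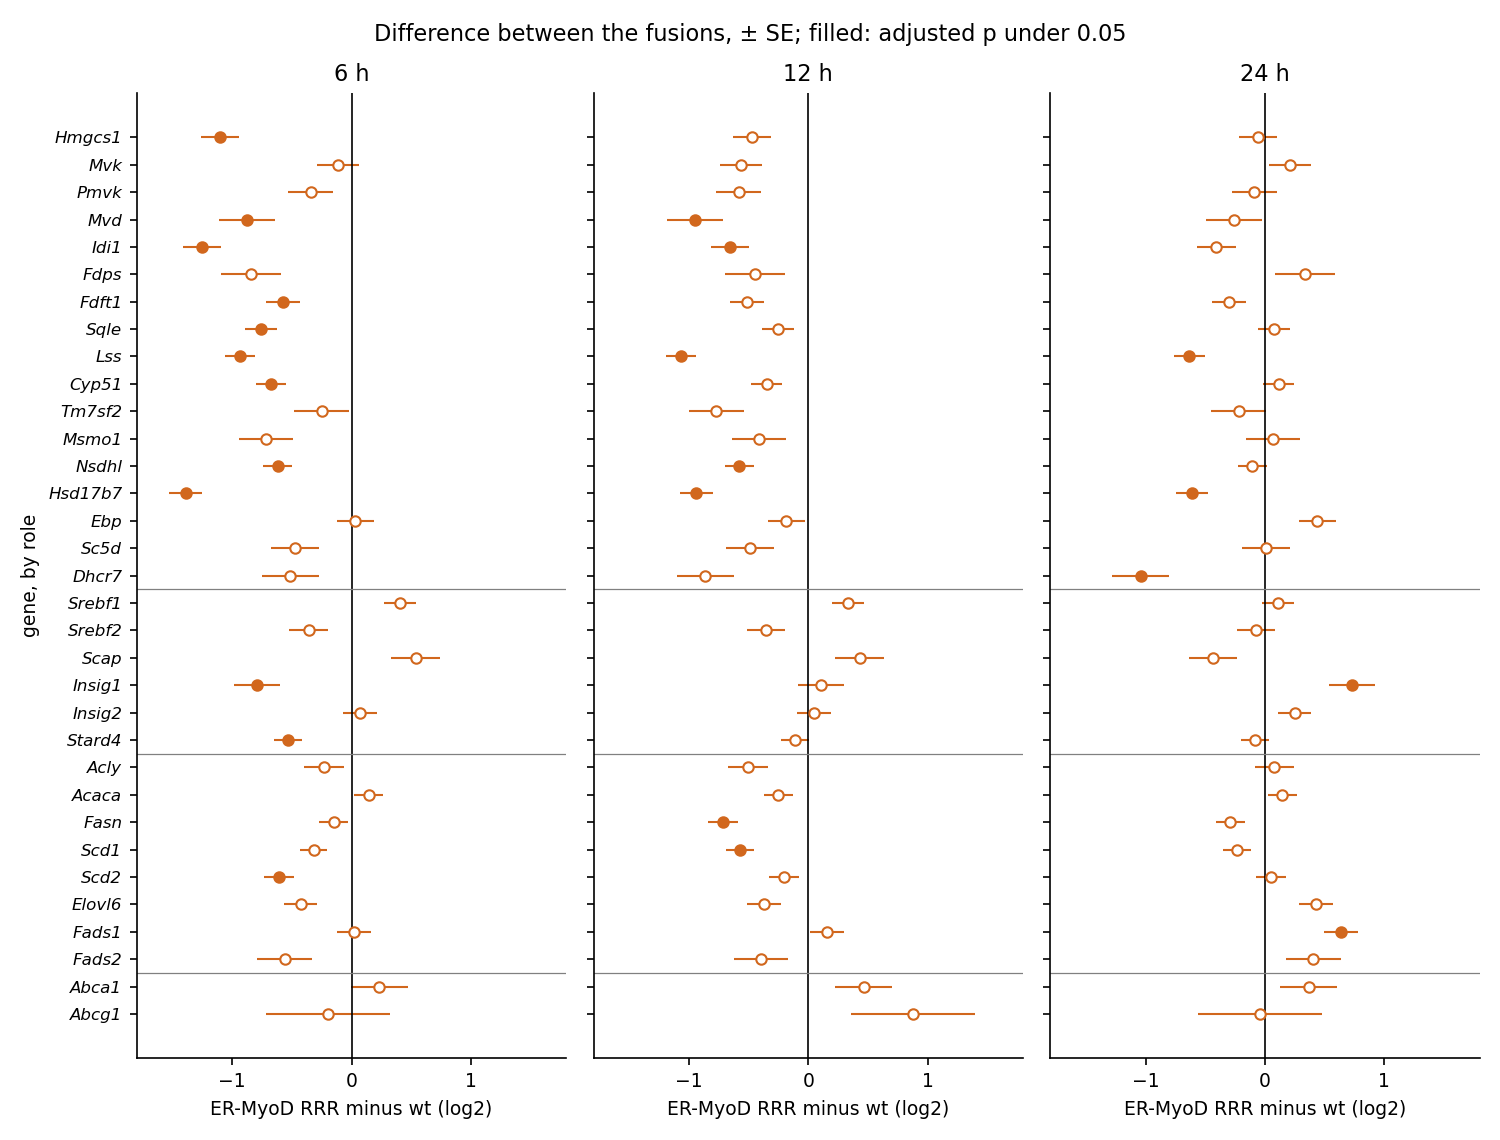
Log2(signal + 16) difference of ER-MyoD RRR minus ER-MyoD wt (horizontal axis, point ± standard error) for 33 genes (rows) at 6, 12 and 24 h; filled points have an adjusted p under 0.05. Sterol enzymes lie left of 0 at 6 and 12 h with the exception of Ebp at 6 h, and at 24 h values lie on both sides, with Insig1 and Fads1 higher and Lss, Hsd17b7 and Dhcr7 lower.

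Among the regulators, the SREBP genes parted from each other. Srebf2, which encodes the sterol factor, had signals of 314, 389 and 285 at 6 h, 448, 301 and 479 at 12 h and 708, 622 and 821 at 24 h with the empty retrovirus. In ER-MyoD wt cells they were 603, 622 and 689.7 at 0 h, 953, 927 and 764 at 6 h, 1181, 1201 and 1195 at 12 h and 1506, 1565 and 1548 at 24 h. ER-MyoD wt was above the empty retrovirus without overlap at each time, by 1.36 ± 0.16 (adjusted p = 3.37e-07), 1.46 ± 0.16 (adjusted p = 7.09e-08) and 1.06 ± 0.16 (adjusted p = 6.36e-06). The change of that difference from 6 to 24 h was -0.30 ± 0.23 (adjusted p = 0.477), with an interval of -0.76 to 0.17. ER-MyoD RRR exceeded the empty retrovirus by 1.0 ± 0.16 (adjusted p = 4.8e-05), 1.11 ± 0.16 (adjusted p = 1.37e-05) and 0.99 ± 0.16 (adjusted p = 3.63e-05), and its difference from ER-MyoD wt was -0.36 ± 0.16 (adjusted p = 0.249) at 6 h, with an interval of -0.69 to -0.03.

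Srebf1, which encodes the fatty acid factor, lay between 383 and 558 in all 10 group means. Its ER-MyoD wt difference from the empty retrovirus was -0.03 ± 0.14 (adjusted p = 0.942) at 6 h (interval -0.31 to 0.25), -0.07 ± 0.14 (adjusted p = 0.813) at 12 h and -0.24 ± 0.14 (adjusted p = 0.224) at 24 h. It fell by 0.44 in ER-MyoD wt cells from 0 to 6 h (-0.44 ± 0.14, adjusted p = 0.0215), a call lost without ER-MyoD wt 0 h replicates 1 or 3 or ER-MyoD wt 6 h replicates 1 or 3 (adjusted p up to 0.0965), or with median centring (adjusted p = 0.12). Scap, the escort of the SREBPs, differed by 0.19 ± 0.20 (adjusted p = 0.674) with ER-MyoD wt at 6 h and passed with ER-MyoD RRR at 6 h (0.73 ± 0.20, adjusted p = 0.0145), a call lost without ER-MyoD RRR 6 h replicates 1 or 3 or empty retrovirus 6 h replicate 3 (adjusted p up to 0.142).

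At 12 and 24 h the INSIG genes ran opposite ways against the empty retrovirus. Insig1, itself a target of SREBP that closes the feedback loop, had 125, 90.2 and 152 at 6 h, 110.3, 212 and 172 at 12 h and 552, 559 and 500.5 at 24 h with the empty retrovirus. In ER-MyoD wt cells it had 305, 377 and 356 at 0 h, 996, 913 and 1102 at 6 h, 1190.2, 985 and 1075 at 12 h and 1079, 1113 and 859 at 24 h. ER-MyoD wt exceeded the empty retrovirus by 2.91 ± 0.19 (adjusted p = 4.82e-12), 2.72 ± 0.19 (adjusted p = 1.55e-11) and 0.89 ± 0.19 (adjusted p = 0.00072) with no overlap. Insig2, which also holds SCAP back, had 362, 412 and 391 with ER-MyoD wt and 626, 799 and 754 with the empty retrovirus at 24 h. It was lower with ER-MyoD wt, with differences of -0.69 ± 0.14 (adjusted p = 0.000659) at 12 h and -0.89 ± 0.14 (adjusted p = 1.39e-05) at 24 h. With ER-MyoD RRR these were -0.65 ± 0.14 (adjusted p = 0.00236) and -0.64 ± 0.14 (adjusted p = 0.00132), of which that at 12 h did not pass with median centring (adjusted p = 0.129). At 6 h Insig2 passed with neither MyoD form. Of its 2 other probe sets with a mean signal of at least 50, 0 passed at 12 h with either form. At 24 h 2 passed in the same direction with ER-MyoD wt and 1 with ER-MyoD RRR.

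Insig1 was also the member whose standing between both MyoD forms turned over. With ER-MyoD RRR it had 546, 618 and 499.9 at 6 h, 1006, 1481 and 1074 at 12 h and 1498, 1541 and 1712 at 24 h, below every ER-MyoD wt array at 6 h and above every one at 24 h. The difference was -0.79 ± 0.19 (adjusted p = 0.0181) at 6 h, 0.10 ± 0.19 (adjusted p = 0.944) at 12 h and 0.73 ± 0.19 (adjusted p = 0.0222) at 24 h. The test of the change from 6 to 24 h gave 1.52 ± 0.27 (adjusted p = 0.00241). The call at 6 h was lost without ER-MyoD RRR 6 h replicates 1 or 3 or ER-MyoD wt 6 h replicates 1 or 3 (adjusted p up to 0.0852), and that at 24 h without ER-MyoD RRR 24 h replicates 2 or 3 or ER-MyoD wt 24 h replicate 3 (adjusted p up to 0.0924). With median centring the difference at 24 h was 0.51 and did not pass. There were 6 other members that changed in the same direction, where 1.33% of all genes were higher and 0.704% lower. They were Hmgcs1 (1.04 ± 0.22, adjusted p = 0.0109), Idi1 (0.85 ± 0.23, adjusted p = 0.0481), Sqle (0.83 ± 0.19, adjusted p = 0.0146), Cyp51 (0.79 ± 0.18, adjusted p = 0.0164), Hsd17b7 (0.78 ± 0.19, adjusted p = 0.0284) and Elovl6 (0.85 ± 0.20, adjusted p = 0.0186). Of these, Idi1 was lost without ER-MyoD RRR 24 h replicates 1, 2 or 3 or ER-MyoD RRR 6 h replicates 1 or 3 or ER-MyoD wt 24 h replicates 1, 2 or 3 or ER-MyoD wt 6 h replicates 1, 2 or 3 (adjusted p up to 0.146). Hsd17b7 was lost without ER-MyoD RRR 24 h replicate 3 or ER-MyoD RRR 6 h replicate 3 or ER-MyoD wt 24 h replicate 3 or ER-MyoD wt 6 h replicates 2 or 3 (adjusted p up to 0.0929), Sqle without ER-MyoD RRR 24 h replicate 2 or ER-MyoD wt 6 h replicate 1 (adjusted p up to 0.0528), Cyp51 without ER-MyoD wt 24 h replicate 3 (adjusted p = 0.0588) and Elovl6 without ER-MyoD RRR 6 h replicate 3 or ER-MyoD wt 6 h replicate 1 (adjusted p up to 0.0677). The 7 calls were 4 without ER-MyoD wt 24 h replicate 3 or without ER-MyoD wt 6 h replicate 1, and 0 with median centring. With that scaling 25 of all genes were higher in this test, in place of 242.

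Stard4, which carries cholesterol between membranes and answers to SREBP, followed the sterol enzymes. It had 435, 459 and 397 with the empty retrovirus, 942, 1041 and 943 with ER-MyoD RRR and 1559, 1343 and 1351 with ER-MyoD wt at 6 h, in 3 ranges that did not overlap. ER-MyoD wt exceeded the empty retrovirus by 1.61 ± 0.12 (adjusted p = 3.37e-11) at 6 h and 0.61 ± 0.12 (adjusted p = 0.000175) at 24 h. The difference of ER-MyoD RRR from ER-MyoD wt was -0.53 ± 0.12 (adjusted p = 0.00862) at 6 h. The last call was lost without ER-MyoD wt 6 h replicate 1 (adjusted p = 0.0664).

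**Figure D4:**
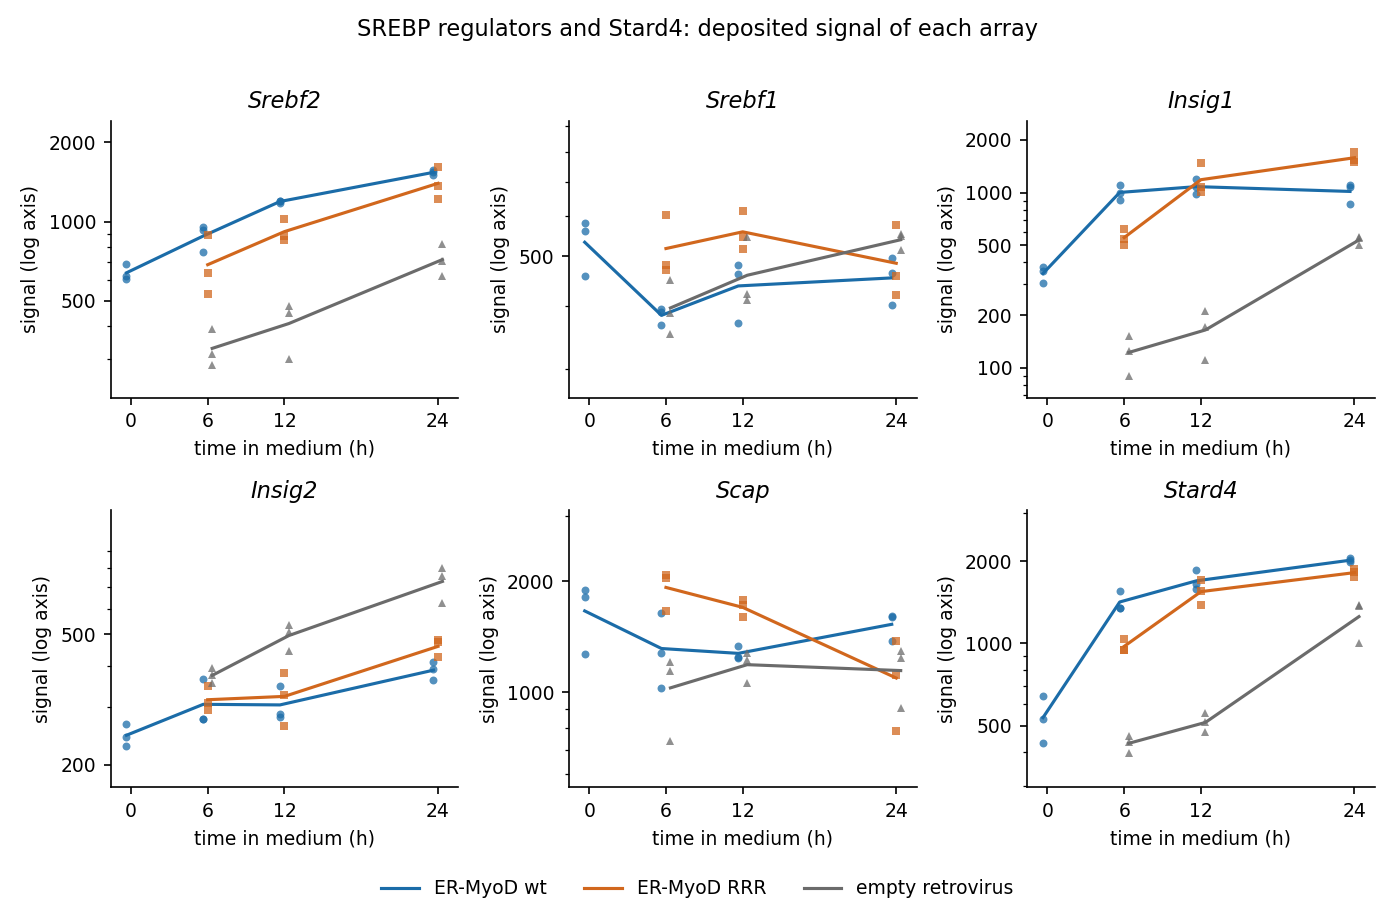
Deposited signal (log axis, arbitrary units) of Srebf2, Srebf1, Insig1, Insig2, Scap and Stard4 against time (h) in the 3 conditions; points are single arrays and lines join group means (n = 3). Srebf2, Insig1 and Stard4 are lowest with the empty retrovirus, Insig2 is highest there, and Srebf1 varies little.

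The fatty acid enzymes had smaller median differences than the sterol enzymes. Of the 8, 6 were higher with ER-MyoD wt than with the empty retrovirus at 6 h, 8 at 12 h and 1 at 24 h, when 3 were lower. Of all genes 6.51%, 7.16% and 11.4% were higher at these times and 14.0% lower at 24 h, so that 1 of 8 higher at 24 h is near the background. Their median differences were 0.71, 1.30 and -0.03, the last of which was 0.16 with median centring. With ER-MyoD RRR 3 and 8 were higher than the control at 6 and 12 h and 2 were lower at 24 h, with medians of 0.38, 1.04 and 0.02 at these times, the last being -0.03 with median centring. The shares of all genes were 7.18% and 5.11% higher and 10.5% lower. In no fatty acid enzyme did the 9 arrays of 6 h or of 24 h fall without overlap in the order empty retrovirus, ER-MyoD RRR, ER-MyoD wt, and in 4 they did at 12 h, against 1.53%, 3.52% and 2.17% of all genes at 6, 24 and 12 h.

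Acly and Acaca, which supply acetyl-CoA and malonyl-CoA, did not pass at 6 h. Acly had 1160.5, 1314 and 1064 with the empty retrovirus and 1359, 1316 and 1261 with ER-MyoD wt at 6 h, a difference of -0.02 ± 0.16 (adjusted p = 0.965) with an interval of -0.36 to 0.31. At 12 h it had 1182, 1026 and 1082 against 2546, 2496 and 2284 and differed by 1.03 ± 0.16 (adjusted p = 2.99e-05). Acaca differed by 0.07 ± 0.12 (adjusted p = 0.814) at 6 h, 0.67 ± 0.12 (adjusted p = 0.000161) at 12 h and -0.06 ± 0.12 (adjusted p = 0.791) at 24 h. Among other probe sets with a mean signal of at least 50, 2 of 3 passed in the same direction for Acly at 12 h. For Acaca 0 of 1 did. Fasn, the synthase of palmitate, had 657, 601 and 642 with the empty retrovirus, 1667, 1451 and 1385 with ER-MyoD RRR and 2931, 2212 and 2310.4 with ER-MyoD wt at 12 h, with no overlap. ER-MyoD wt was above the control by 1.86 ± 0.12 (adjusted p = 4.02e-12) and above ER-MyoD RRR, whose difference was -0.71 ± 0.12 (adjusted p = 0.00103). At 24 h the difference of ER-MyoD wt from the control was 0.29 ± 0.12 (adjusted p = 0.0963).

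The stearoyl-CoA desaturases, which put a double bond into saturated chains, rose over the course. Scd1 had 641, 688 and 580.0 at 0 h, 846, 987 and 695 at 6 h, 2085, 1709.7 and 1927 at 12 h and 3177, 3389 and 2546 at 24 h in ER-MyoD wt cells. With the empty retrovirus it had 346, 392 and 375 at 6 h, 407, 472 and 493 at 12 h and 2006, 2403 and 1955 at 24 h. The ER-MyoD wt difference was 1.10 ± 0.12 (adjusted p = 4.59e-08), 1.96 ± 0.12 (adjusted p = 3.12e-13) and 0.35 ± 0.12 (adjusted p = 0.0268) at 6, 12 and 24 h, and the last was lost without ER-MyoD wt 24 h replicates 1 or 2 or empty retrovirus 24 h replicate 3 (adjusted p up to 0.162). With ER-MyoD RRR Scd1 had 1196, 1358 and 1255 at 12 h, a difference of -0.57 ± 0.12 (adjusted p = 0.00615) from ER-MyoD wt that was lost without ER-MyoD wt 12 h replicate 1 (adjusted p = 0.0735). Scd2 was lower with ER-MyoD RRR than with ER-MyoD wt at 6 h (-0.60 ± 0.13, adjusted p = 0.00562), where 0 of its 2 other probe sets with a mean signal of at least 50 passed. Against the control it was higher with ER-MyoD wt by 0.70 ± 0.13 (adjusted p = 0.000193) at 6 h and 1.13 ± 0.13 (adjusted p = 8.81e-08) at 12 h, and did not pass at 24 h (adjusted p = 0.999). Of the same 2 other probe sets, 0 passed against the control at 6 h and 2 in the same direction at 12 h.

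With the probe sets used, Elovl6, Fads1 and Fads2, which lengthen and desaturate longer chains, were above the control early and below it late. Elovl6 had 1383, 1275 and 1105 with ER-MyoD wt against 426, 352 and 504 with the empty retrovirus at 12 h, and 975, 1018 and 972 against 1612, 1755 and 1644 at 24 h, with no overlap at either time. Its difference was 0.75 ± 0.14 (adjusted p = 0.000317) at 6 h, 1.47 ± 0.14 (adjusted p = 5.61e-09) at 12 h and -0.89 ± 0.14 (adjusted p = 1.23e-05) at 24 h. Fads1 had 828, 823 and 686 with ER-MyoD wt, 1112, 1301 and 1029 with ER-MyoD RRR and 1683, 1904 and 1895 with the empty retrovirus at 24 h, in 3 separate ranges. ER-MyoD wt differed from the control by -1.35 ± 0.14 (adjusted p = 1.5e-08) at 24 h and by 0.50 ± 0.14 (adjusted p = 0.0169) at 6 h. The latter was lost without ER-MyoD wt 6 h replicate 1 or empty retrovirus 6 h replicate 3 (adjusted p up to 0.0825). Fads2 went from 0.999 ± 0.23 (adjusted p = 0.00293) at 6 h and 2.23 ± 0.23 (adjusted p = 2.3e-08) at 12 h to -0.76 ± 0.23 (adjusted p = 0.0139) at 24 h, lost without empty retrovirus 24 h replicate 3 (adjusted p = 0.0594) or with median centring (adjusted p = 0.0845). The changes from 6 to 24 h were -1.64 ± 0.20 (adjusted p = 5.61e-07) for Elovl6, -1.85 ± 0.20 (adjusted p = 8.87e-08) for Fads1 and -1.76 ± 0.33 (adjusted p = 0.000246) for Fads2. Other probe sets with a mean signal of at least 50 were read for ER-MyoD wt against the control. For Fads1 0 of 1 passed in the same direction at 6 and at 12 h, and 1 of 1 at 24 h. For Fads2 1 of 1 did at 12 h and 0 of 1 at 6 and at 24 h. For Elovl6 1 of 2 did at each time.

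Between both MyoD forms at 24 h Fads1 was higher with ER-MyoD RRR by 0.64 ± 0.14 (adjusted p = 0.00581), while Elovl6 and Fads2 differed by 0.43 ± 0.14 (adjusted p = 0.0783) and 0.40 ± 0.23 (adjusted p = 0.406). The call for Fads1 was lost without ER-MyoD RRR 24 h replicate 2 (adjusted p = 0.0507) and with median centring (0.42, adjusted p = 0.372). At 24 h 9 of 13 fibroblast markers were also higher with ER-MyoD RRR than with ER-MyoD wt, beside 3.34% of all genes. With ER-MyoD wt 10 of these 13 markers were lower than with the empty retrovirus, beside 14.0% of all genes. Their part in the levels of Elovl6, Fads1, Fads2 and Insig2 was not tested.

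**Figure D5:**
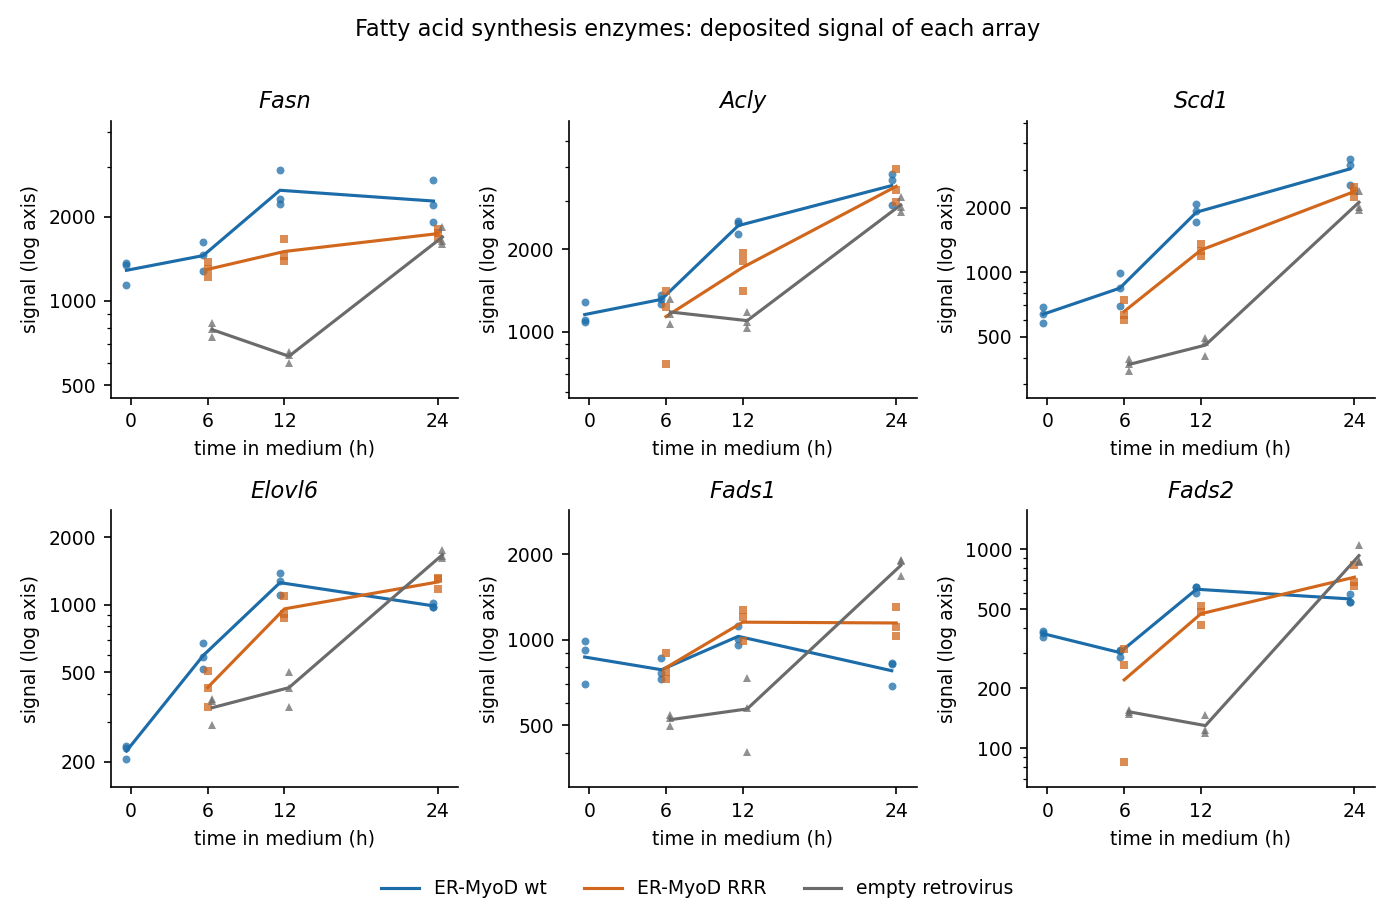
Deposited signal (log axis, arbitrary units) of 6 fatty acid enzymes against time (h) in the 3 conditions; points are single arrays and lines join group means (n = 3). Fasn and Acly converge at 24 h, and Elovl6, Fads1 and Fads2 are highest with the empty retrovirus at 24 h.

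The sterol exporters Abca1 and Abcg1, which respond to the oxysterol receptor LXR, stayed dim. Abcg1 had group means between 33.3 and 81.3, with arrays of 1 group as far apart as 84.3, 6.91 and 22.2, and passed in 0 of the 19 comparisons with limma, nor had it an unadjusted p under 0.05 in any (lowest 0.1). Abca1 had group means between 52.9 and 167. It was higher with ER-MyoD RRR than with the empty retrovirus at 12 h, with 139, 119 and 153 against 98.0, 79.8 and 50.4. The difference was 0.89 ± 0.24 (adjusted p = 0.014), a call lost without ER-MyoD RRR 12 h replicate 3 or empty retrovirus 12 h replicate 3 (adjusted p up to 0.099). Its ER-MyoD wt differences from the control were -0.30 ± 0.24, 0.42 ± 0.24 and 0.06 ± 0.24 at 6, 12 and 24 h and did not pass.

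Further genes of the same pathways, taken from lists of related genes, were read against the shares of all genes that were higher with ER-MyoD wt than with the empty retrovirus, 6.51%, 7.16% and 11.4% at 6, 12 and 24 h, or lower, 6.21%, 8.26% and 14.0%. Of 7 other sterol synthesis genes measured, 3, 4 and 2 were higher at 6, 12 and 24 h, and 1 was lower at 24 h, which is near the background. Erg28, a scaffold of sterol demethylation, was higher by 1.51 ± 0.24 at 12 h, and Lbr, a sterol reductase of the nuclear envelope, lower, at -0.95 ± 0.17 at 24 h. Of 19 genes of sterol uptake, storage and transport, 2, 6 and 2 were higher and 4, 5 and 7 lower at these times, the 2 higher at 6 and at 24 h being near the background. Tmem97, a binding partner of the lysosomal cholesterol carrier NPC1, was higher by 1.53 ± 0.28 at 6 h. Lrp8, a lipoprotein receptor, was higher by 2.05 ± 0.24 at 24 h. Mylip, the ligase that LXR uses to remove lipoprotein receptors, had differences of -0.89 ± 0.16, -0.63 ± 0.16 and -1.35 ± 0.16 at 6, 12 and 24 h. Cav1, the coat protein of caveolae, had one of -1.51 ± 0.17 at 6 h. Of 17 genes of SREBP processing and nuclear receptors, 2 and 4 were higher and 1 and 3 lower at 12 and 24 h, where the lower ones are near the background. Paqr3, a Golgi anchor of the SCAP and SREBP complex, was lower at 24 h, with a difference of -2.30 ± 0.31. At 6 h the LXR gene Nr1h3 differed by 0.18 ± 0.28 (adjusted p = 0.805).

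Of 30 other genes of fatty acid and glycerolipid synthesis, 6, 10 and 7 were higher and 4, 2 and 6 lower with ER-MyoD wt at 6, 12 and 24 h, beside the same shares of all genes (6.51%, 7.16% and 11.4% higher, 6.21%, 8.26% and 14.0% lower). The 2 lower at 12 h and the 6 lower at 24 h are near the background. Acsl3, an acyl-CoA synthetase, was higher by 2.11 ± 0.20, 2.50 ± 0.20 and 1.33 ± 0.20, and Acss2, which makes acetyl-CoA from acetate, by 1.09 ± 0.27, 1.62 ± 0.27 and 1.61 ± 0.27. Fads3, a relative of Fads1 and Fads2, was higher by 3.37 ± 0.34 at 6 h and stood at -0.02 ± 0.34 at 24 h. In the empty retrovirus cells from 12 to 24 h, 12 of the 30 rose, where 5.85% of all genes did, led by Acsl3 (2.37 ± 0.20) and Lpin1 (2.14 ± 0.20), a phosphatidate phosphatase. Between ER-MyoD RRR and ER-MyoD wt at 6 h, 2 of the 30 were higher and 2 lower, beside 1.63% and 2.03% of all genes. Of the other sterol synthesis genes Acat1, the thiolase of mitochondria, was lower with ER-MyoD RRR at 12 h, with a difference of -0.41 ± 0.10.

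Over the 10 group means, 8098 other genes had a range of at least 1 log2 unit, and the 10 that tracked the mean of the sterol enzymes most closely by Pearson's r were Dag1 (0.98), Slc8b1 (0.97), Pdzrn3 (0.97), Dbi (0.96), Pcyt2 (0.96), Aacs (0.96), Acsl3 (0.96), Ssc5d (0.96), Galnt4 (0.94) and Susd6 (0.94). The points share arrays, time and scaling, and r is given as a description. Dag1, the dystroglycan gene, had 419.8, 414 and 620.1 with the empty retrovirus and 1086, 1247 and 1100.0 with ER-MyoD wt at 6 h. At 24 h these were 1048, 1279 and 1073 and 1902, 2529.6 and 1815. Over the 30 arrays in place of group means, 6 of these 10 genes were again among the 10 closest.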

How the data were processed

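The deposited table held, for every probe set on every array, 1 intensity on a linear scale, made by the authors with software not given in the sources used here. Each array had a trimmed mean of 150 (2% trimmed from each end), and values ran from 0.0474 to 20986. Probe sets were named from the platform annotation. Of 45101, 64 controls were left out, 34945 had 1 gene symbol, 932 several and 9160 none, which left 18193 genes, with the brightest probe set for each. Levels are printed as deposited. For tests the intensities were quantile-normalized, 16 was added, log2 was taken, and group means were fitted in limma 3.58.1 (R 4.3.3; lmFit and eBayes with trend) over 30 arrays, with 20 residual degrees of freedom. Comparisons numbered 19, of which 3 tested the change of a difference from 6 to 24 h. Adjusted p-values are Benjamini-Hochberg values over 18193 genes, and intervals are 95% intervals of the fit. Array number, not read depth, limits precision.

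Members and related lists were chosen with earlier results of these data known. Every member with a probe set was described. Further genes named are at most 3 from each related list and comparison, the largest that passed, and genes fixed by name. The sterol enzymes gave the pattern for the 10 genes most alike, among genes whose group means ranged over at least 1 log2 unit. Replicate numbers recur across groups, but of 27 pairs of equal number in different conditions at the same time, 10 had a correlation of deviations over 0.1. Over all pairs of equal number in different groups, also across times, the median was 0.0890. For replicate 1 the correlations between conditions ran from 0.24 to 0.41 at 6 and 12 h and from -0.0028 to 0.21 at 24 h. For replicates 2 and 3 they ran from -0.48 to 0.45. The numbers were not taken to pair samples in the main fit, and a fit with them as a block is given below. Whether arrays of equal number share a batch was not tested. Alternatives covered scaling, pseudocount, a filter on low signal, the probe set, the arrays fitted, a replicate block, array weights, the trend and each array left out. The fit was tested on simulated data.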

Additional observations from a re-analysis of the deposited data

Results flagged for a closer look

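The differences between conditions of these members were set against each other at 6 and 24 h. The values below are the log2 change of a difference from 6 to 24 h for each member in which limma gave an adjusted p under 0.05. The ER-MyoD wt minus empty retrovirus difference became smaller or turned negative for 21 members. Among the sterol enzymes the change was -2.36 for Hmgcs1, -0.89 for Mvk, -2.44 for Mvd, -2.02 for Idi1, -2.67 for Fdps, -0.89 for Fdft1 and -2.58 for Sqle. Past lanosterol it was -2.26 for Cyp51, -1.68 for Msmo1, -0.85 for Nsdhl, -1.45 for Hsd17b7, -0.71 for Ebp and -1.15 for Sc5d. Among regulators and carriers it was -2.02 for Insig1, -0.63 for Insig2 and -1.001 for Stard4. Among fatty acid enzymes it was -0.76 for Scd1, -0.69 for Scd2, -1.64 for Elovl6, -1.85 for Fads1 and -1.76 for Fads2.

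The ER-MyoD RRR minus empty retrovirus difference, which shares the control arrays, changed for 14 members. The values were -1.32 for Hmgcs1, -1.83 for Mvd, -1.17 for Idi1, -1.49 for Fdps, -0.61 for Fdft1, -1.75 for Sqle, -1.47 for Cyp51, -0.67 for Hsd17b7 and -1.48 for Dhcr7. They were -0.56 for Stard4, -0.58 for Fasn, -0.67 for Scd1, -0.78 for Elovl6 and -1.23 for Fads1. The difference of ER-MyoD RRR from ER-MyoD wt moved upwards for 7 members, by 1.04 for Hmgcs1, 0.85 for Idi1, 0.83 for Sqle, 0.79 for Cyp51, 0.78 for Hsd17b7, 1.52 for Insig1 and 0.85 for Elovl6, and 0 of these 7 passed with median centring. With that scaling it moved upwards for 25 of all genes, in place of 242.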

How the results depend on the processing

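Counts below are members past an adjusted p under 0.05 out of 33. Leaving out 1 array at a time gave 25 to 26, 28 to 29 and 15 to 17 for ER-MyoD wt minus empty retrovirus at 6, 12 and 24 h (26, 29 and 17 with all arrays). It gave 21 to 24, 26 to 29 and 10 to 12 for ER-MyoD RRR minus empty retrovirus (24, 29 and 13), and 8 to 12, 3 to 7 and 3 to 5 for ER-MyoD RRR minus ER-MyoD wt (12, 7 and 5). For time steps it gave 16 to 18, 16 to 18 and 5 to 8 in ER-MyoD wt cells from 0 to 6, 6 to 12 and 12 to 24 h (18, 21 and 8). It gave 17 to 20 and 17 to 23 in ER-MyoD RRR cells (21 and 23), and 0 to 2 and 27 to 29 with the empty retrovirus (2 and 29). For the changes from 6 to 24 h it gave 18 to 22, 11 to 17 and 4 to 8 (21, 14 and 7). Of 326 calls, 64 were lost in at least 1 omission, and no called value changed sign in any.

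Median centring gave 2 and 3 for ER-MyoD RRR minus ER-MyoD wt at 12 and 24 h, 12 and 4 for the last 2 steps of ER-MyoD wt. It gave 6 for ER-MyoD RRR from 12 to 24 h, 0 for the empty retrovirus from 6 to 12 h and 0 for the change of ER-MyoD RRR minus ER-MyoD wt. The mean of all probe sets of a gene gave 3 for ER-MyoD RRR minus ER-MyoD wt at 24 h, 14 for ER-MyoD RRR from 12 to 24 h, 0 for the empty retrovirus from 6 to 12 h and 4 for that change. The second brightest probe set, which is dim for several members, gave 7 for ER-MyoD RRR minus empty retrovirus at 24 h and 3 and 2 for ER-MyoD RRR minus ER-MyoD wt at 12 and 24 h. It gave 10 and 5 for the last 2 steps of ER-MyoD wt, 10 for ER-MyoD RRR from 12 to 24 h, 0 for the empty retrovirus from 6 to 12 h, and 13, 7 and 4 for the changes. A fit of only the arrays compared, with fewer residual degrees of freedom, gave 6 for ER-MyoD RRR minus ER-MyoD wt at 6 h, 0 for the empty retrovirus from 6 to 12 h and 1 for the change of ER-MyoD RRR minus ER-MyoD wt. Without a trend, 5 rose in ER-MyoD wt cells from 12 to 24 h, 1 with the empty retrovirus from 6 to 12 h (also 1 without quantile normalization), and 3 remained for that change. Array weights, and the omission of the 3 arrays that stood apart, chosen after seeing the data, each gave 13 for ER-MyoD RRR minus ER-MyoD wt at 12 h, and that omission gave 3 for the empty retrovirus from 6 to 12 h. Fitting the replicate number as a block gave 13, 7 and 5 for ER-MyoD RRR minus ER-MyoD wt at 6, 12 and 24 h, and 10 for its change. It lost no call of the 627 tests of a member and added 14. Of the 10 genes most like the sterol enzymes, 6 recurred over 30 arrays. Where no cause is named, the cause was not tested.

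In the 16 comparisons of 2 groups, tested among all probe sets, 176 calls were of genes with another probe set of mean signal at least 50. Of 297 tests of such other probe sets, 152 passed in the same direction and 0 in the opposite one. In the alternatives, signs turned for 18 called values. With the second brightest probe set these were, for Fdps, -0.079 and -0.21 (ER-MyoD wt minus empty retrovirus, 6 and 12 h), -0.16 (ER-MyoD RRR minus empty retrovirus, 6 h), -0.21 (ER-MyoD wt, 6 to 12 h) and -0.37 (ER-MyoD RRR, 12 to 24 h). For Msmo1 they were -0.11 (ER-MyoD RRR minus empty retrovirus at 12 h), -0.17 and -0.36 (6 to 12 h in ER-MyoD wt and ER-MyoD RRR). For Mvk they were -0.17 (ER-MyoD RRR minus empty retrovirus at 6 h) and 0.10 (change of ER-MyoD wt minus empty retrovirus), for Hsd17b7 0.33 (change of ER-MyoD RRR minus empty retrovirus) and for Scap -0.13 (ER-MyoD RRR minus empty retrovirus at 6 h). For Acaca it was -0.43 (ER-MyoD RRR, 12 to 24 h), for Scd1 -0.15 and -0.045 (ER-MyoD wt, 0 to 6 and 12 to 24 h), and for Abca1 -0.28 and -0.027 (ER-MyoD RRR at 12 h minus empty retrovirus, and minus 6 h). With median centring it was -0.0022 for Stard4 (ER-MyoD RRR, 12 to 24 h).

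Median centring moved the median over all genes by 0.11 for ER-MyoD wt at 6 h and 0.11 for ER-MyoD RRR at 12 h, each minus empty retrovirus, and by -0.13 for ER-MyoD RRR from 12 to 24 h and for the change of ER-MyoD RRR minus empty retrovirus. Without quantile normalization the last 2 moved by 0.10 and 0.11. Median centring changed the share of higher among called genes from 51.2% to 72.3% and 46.4% to 62.5% for ER-MyoD wt minus empty retrovirus at 6 and 12 h. The share went from 52.0% to 67.2%, 50.7% to 75% and 44.9% to 34.8% for ER-MyoD RRR minus empty retrovirus at 6, 12 and 24 h. It went from 44.4% to 21.6% and 62.0% to 37.1% for ER-MyoD RRR minus ER-MyoD wt at 6 and 24 h. For ER-MyoD RRR from 12 to 24 h it went from 46.3% to 21.1%, and for the changes from 43.9% to 30.05%, 43.4% to 24% and 65.4% to 52.1%.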
